A study of Arabidopsis thaliana with 2 samples.

Results

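The co-chaperone genes followed here, in Arabidopsis thaliana, were Hop1 (AT1G12270), Hop2 (AT1G62740), Hop3 (AT4G12400), FKBP65 (AT5G48570, also named ROF2) and its paralogue FKBP62 (AT3G25230, also named ROF1). They were taken by locus from 13355 genes with a single-gene probe set, a group of array probes that the annotation pairs with 1 gene only. Of the 5 members, 4 have 1 such probe set each. FKBP62 has 0 and was not analysed here, so the comparison of FKBP65 with its paralogue has no value. The members were chosen by locus after their log2 ratios of hypoxia over control on these same arrays had been seen, so those ratios describe the members and test nothing.

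The cells were leaf mesophyll protoplasts, photosynthetic leaf cells whose walls have been removed. Leaves of 36 plants, grown in 13 h of light at 23 °C, were picked 2 h into the light period, and their cells were pooled before being divided, so both samples share their plants. For the control, cells were kept for 6 h as a layer 0.6 mm deep in a dish with 10 ml of mannitol buffer. For hypoxia, an equal number of cells was kept as long, under the same light of 80 microeinstein, 25 mm deep in a 15 ml tube with 2 ml of that buffer, at 5.0 times the cell density. Oxygen, cell density and vessel therefore changed together and cannot be told apart, and with 1 array per condition no difference has a replicate check. The labels give neither a genotype nor an ecotype.

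HSP90 is an abundant chaperone that completes the folding of kinases, receptors and transcription factors, and it works with co-chaperones that bring it clients or tune its ATPase cycle. Hop, the HSP70-HSP90 organising protein, binds the C-terminal tails of both chaperones through its tetratricopeptide repeat (TPR) domains and helps pass clients from HSP70 to HSP90. FKBP62 and FKBP65 are large immunophilins, proteins with peptidyl-prolyl isomerase domains and a TPR domain. In Arabidopsis both are heat-induced partners of the HSP90 and heat shock factor A2 system.

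Each array was scaled to a common median, values under a floor of 165.7 were set to it, and hypoxia was divided by control to give a log2 ratio. Genes above the floor on 1 array or both, 7972 in all, are called measured. The median intensity was 345 in control and 334 in hypoxia. All 18 hybridisation control probe sets, which read labelled RNA added at hybridisation, had a ratio above 0, at a median of 0.50 on the log2 scale. The 3 reference genes with a probe set had a median of -0.61, so a modest ratio depends on the yardstick chosen. The ratio of 3′ over 5′ intensity bears on RNA integrity. It was 4.96 in the control and 4.48 under hypoxia for the actin controls. Those for ubiquitin had 2.18 and 1.92, and those for GAPDH had 0.823 and 0.974. For actin and ubiquitin the 3′ end thus read higher on both arrays, and for GAPDH lower. The 3′ and 5′ actin probe sets differ in kind by their IDs, and whether the RNA was degraded was not tested. Of 15 mesophyll markers, 5 have a single-gene probe set, and all 5 lay above the floor on both arrays. Their summed intensity was 72873 in control and 133282 in hypoxia. Of 6 guard cell markers 2 have a probe set, with sums of 327.7 and 503.2, of 5 phloem markers 1 has, at 212 and 1020, and of 5 epidermis markers 0 have. Whether shifts in these cell types play a part in the ratios below was not tested, and in a bulk sample a change in the number of such cells cannot be told apart from a change in their RNA.

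The 3 Hop transcripts differed from each other in direction and in size. Hop3 went from an intensity of 1154 in the control to 23324 under hypoxia. After scaling, that was a log2 ratio of 4.38, or 20.9-fold higher in hypoxia. Of the 7972 measured genes, 11 had a higher ratio. In the RefSeq table Hop3 has 2 transcripts and the other Hop genes have 1 each; which of the 2 the probe set reads was not tested.

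Hop2 was at 8081 in the control and at 17353 under hypoxia, a log2 ratio of 1.15, or 2.22-fold higher. In that direction 10.6% of the measured genes had a larger ratio. The call rests on the scaling: with the arrays centred on the hybridisation controls the ratio was 0.65, within 2-fold, and it was 1.76 when they were centred on the reference genes. Hop1 went the other way, from 1826 on the control array to 930.3 under hypoxia. Its log2 ratio was -0.93, or 1.90-fold lower, so it lay within 2-fold, and 16.4% of measured genes had a still lower ratio. Its ratio was -0.32 with reference gene centring and -1.43, past 2-fold, with hybridisation control centring. The sign of all 3 Hop ratios was kept under the 10 alternatives run, but those that changed only the floor percentile or probe set choice could not change it. The -0.32 of Hop1 is also smaller in size than the 0.34 by which 2 probe sets of a gene differed in the median, described below.

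**Figure D1:**
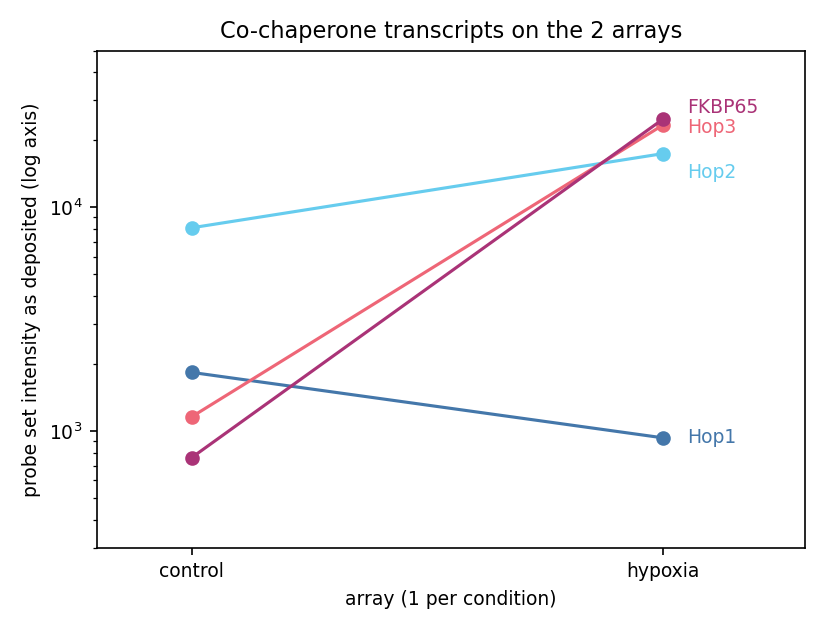
Probe set intensity as deposited, on a log axis, for Hop1, Hop2, Hop3 and FKBP65 on the control and the hypoxia array, with 1 point per array and a line joining the points of a gene. The lines of Hop3 and FKBP65 climb steeply to 23324 and 24783, that of Hop2 climbs to 17353, and that of Hop1 goes down to 930.3; heights of different genes come from different probes and are not compared.

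FKBP65, the immunophilin of the set, was the member with the largest ratio. It went from 758 to 24783, a log2 ratio of 5.08, or 33.8-fold higher. Its rank was 8 among the 7972 measured genes, and that of Hop3 was 12. Both FKBP65 and Hop3 lay well clear of the floor on the control array, at 4.50 and 6.86 times its value, so their ratios are measured on both sides and are no bounds. Their ranks among all genes moved with the settings, from 5 to 15 for FKBP65 and from 10 to 24 for Hop3.

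Of the 4 members with a probe set, 3 were past 2-fold upward and 0 downward. Over all measured genes 13.0% were past 2-fold upward and 14.5% downward, 27.5% in all. Since the members were picked with these ratios known, nothing is read from the contrast. Among the genes past 2-fold, 47.3% were higher; that share was 85.4% with reference gene centring, 17.7% with hybridisation control centring and 61.8% with the floor lowered to the 20th percentile. Reference gene centring moved the median of the measured genes by 0.61 on the log2 scale and hybridisation control centring by -0.50.

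Paralogues were then set against each other, since a scaling factor common to an array cancels in the difference between 2 log2 ratios. The ratio of Hop3 exceeded that of Hop1 by 5.31 on the log2 scale, which is 39.7-fold. It exceeded that of Hop2 by 3.23, or 9.41-fold. Hop2 in turn exceeded Hop1 by 2.08, or 4.21-fold. With no replicate arrays, the one measure of error at hand is how far 2 probe sets of the same gene differ on these arrays, given here for scale and taken from 74 genes whose 2 probe sets were above the floor in both samples. Their log2 ratios differed by 0.34 in the median and by 1.22 at most, and 54 of the 74 pairs had the same sign. This spread covers probe behaviour only and leaves out the variation between cell preparations, and the members were chosen on the ratios compared, so it tests none of these differences.

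Across the 10 alternatives, which include 5 other scalings, the difference between Hop3 and Hop1 ran from 5.11 to 5.31, that between Hop3 and Hop2 from 3.22 to 3.35 and that between Hop2 and Hop1 from 1.77 to 2.08. Both centrings, which changed the 2-fold calls of Hop1 and Hop2, leave such differences as they are by construction, so they say nothing on their stability. The same holds for the values as deposited, the other floor percentiles, which all members cleared, and the other probe set choices, as each member has 1 probe set. Only quantile normalization, which gives both arrays the same distribution of values, loess and the added 16 could move these differences. FKBP65 and Hop3 are not paralogues, and their ratios differed by 0.69 on the log2 scale. In 12 of the 74 genes the 2 probe sets differed by more. Whether the probes of 1 Hop gene also bind transcripts of the others was not tested; all 4 probe sets carry IDs of the gene-specific kind.

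**Figure D2:**
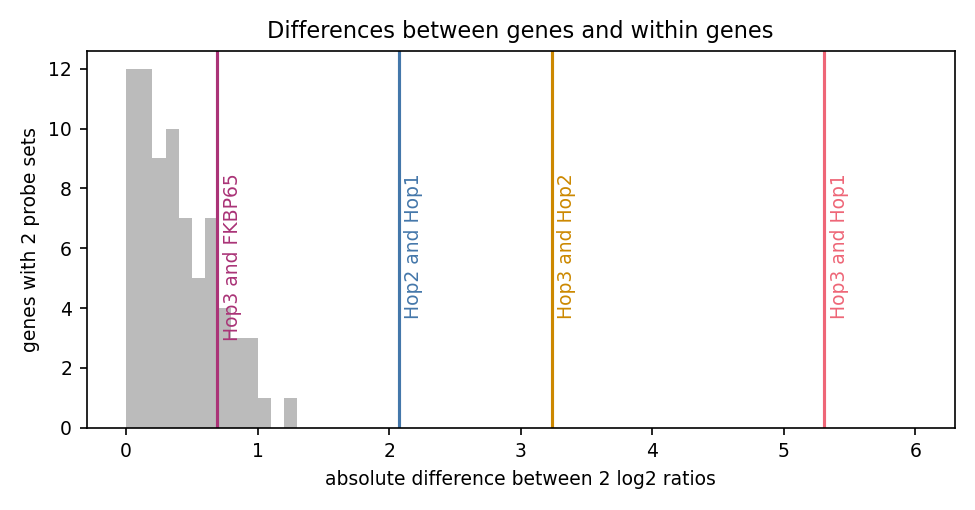
Grey bars count, out of 74 genes with 2 probe sets, the absolute difference between the log2 ratios of the 2 probe sets. Vertical lines mark the differences between members: the 3 Hop pairs, at 2.08, 3.23 and 5.31, lie to the right of the bars, whose highest value is 1.22, and that of Hop3 and FKBP65, at 0.69, lies among them; the bars show probe behaviour only and test none of the lines.

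**Figure D3:**
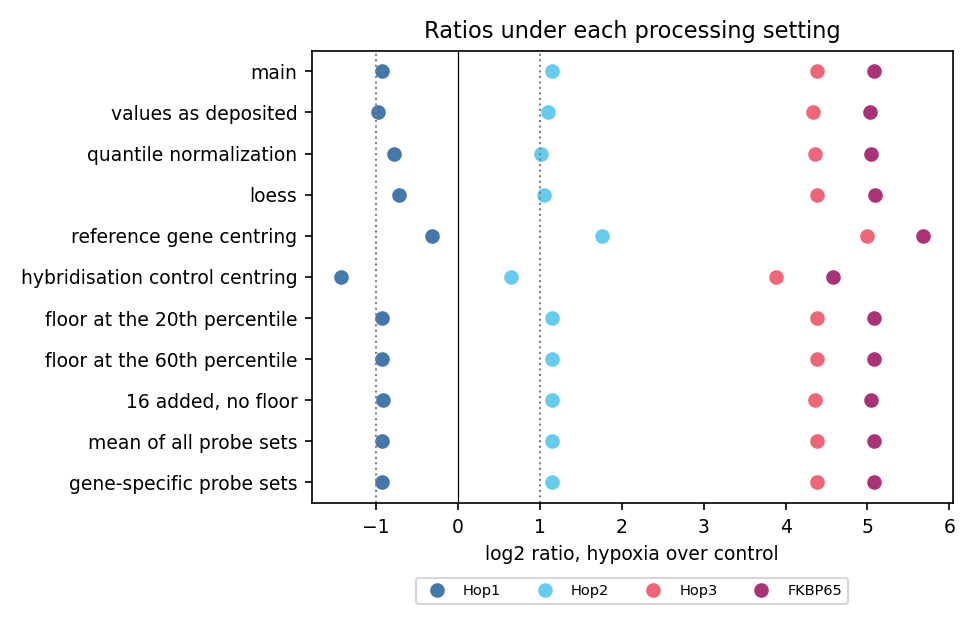
Log2 ratio of hypoxia over control for the 4 members, 1 point per member and processing setting; dotted lines mark 2-fold in either direction. Both centrings slide all members together, which takes Hop2 within 2-fold at 0.65 and Hop1 past 2-fold at -1.43, while the gaps between members stay almost constant.

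The other genes of the HSP90 machinery were measured in part. Of 7 HSP90 genes and of 22 heat shock factor genes, 0 have a single-gene probe set, so the chaperone itself and the regulators it binds were not analysed here. Names of genes below for which the RefSeq table gives a locus alone are those under which the locus was listed. Of 14 other HSP90 co-chaperones, 5 were measured. Past 2-fold were 2 upward and 1 downward, beside 13.0% and 14.5% of all measured genes. The median log2 ratio was 0.48, beside -0.07 over all measured genes, but it is the value of SQN, which is a lower bound. With the floor lowered to the 20th percentile the median was 1.14 and 3 were past 2-fold upward, SQN being the third.

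SGT1A, which works with HSP90 in the stability of immune receptors, went from 2139 to 6578, a log2 ratio of 1.67. AT3G12050, listed as a relative of the HSP90 ATPase activator Aha1, went from 5147 to 11536, a ratio of 1.21, and 0.71 with hybridisation control centring. The other gene listed as an Aha1 relative, AT5G58110, was level at 3197 and 3065, a ratio of -0.01. AT4G02450, listed as a p23 co-chaperone, which stabilises the closed form of HSP90, went from 3232 to 1254, a ratio of -1.32, and -0.71 with reference gene centring. SQN, the cyclophilin 40 gene, whose product is a TPR immunophilin like FKBP65, was at the floor on the control array with 107 and at 228 under hypoxia, so its ratio of 0.48 is a lower bound. Another SQN probe set stayed under the floor throughout, at 5.8 and 31.3. The 4 ratios that are no bounds lay below those of Hop3 and FKBP65. Both members were chosen with their high ratios known, which largely sets that order.

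HSP70 is the partner at the other end of Hop. Of 17 HSP70 genes, 4 were measured, and 0 were past 2-fold in either direction, beside 27.5% of all measured genes, with a median of 0.05. With 4 genes, that count is no result about the list. AT3G09440, listed as the cytosolic HSC70-3, went from 44520 to 76042, a ratio of 0.82, which was past 2-fold with reference gene centring. AT5G02490, named Hsp70-2, had 5813 and 6837, a ratio of 0.28. The other 2, AT1G11660 and AT4G16660, listed as HSP70-16 and HSP70-17, were at -0.18 and -0.88. The lower of them was past 2-fold with hybridisation control centring. Whether all 4 measured genes encode partners of Hop was not tested. The remaining 13 HSP70 genes, strongly heat-induced ones among them, were not analysed here.

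The FKBP family, to which FKBP65 belongs, held 21 other listed genes, of which 13 have a probe set and 12 were measured. Of these 12, 2 were past 2-fold upward and 0 downward, a share upward near the 13.0% of all measured genes. Their ratios ran from -0.77 to 1.25, with a median of 0.64. Many FKBPs of plants are small proteins of the thylakoid lumen, the space inside photosynthetic membranes, and others work in the cytosol, the endoplasmic reticulum or the nucleus. The 2 past 2-fold were listed as such lumen FKBPs: AT3G10060 went from 1246 to 2871, a ratio of 1.25, and AT2G43560 from 1903 to 3737, a ratio of 1.02. The count went to 9 with reference gene centring, 1 with values as deposited and 0 with hybridisation control centring, which put 2 past 2-fold downward. The lowest was AT1G18170, listed as FKBP17-2, which had 793.8 and 450.3, a ratio of -0.77, followed by AT3G55520 at -0.67 and AT3G12340 at -0.13. AT4G19830, AT1G20810, AT5G13410, AT4G26555, AT5G55220, AT3G60370 and AT1G73655 lay between 0.46 and 0.85. The ratio of FKBP65, a gene chosen with its ratio known, stood 3.83 above the highest of these 12 FKBP genes. Its paralogue FKBP62, without a probe set, is not among the 12. The 5 mesophyll markers had a median of 1.04.

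The genes nearest to a member in log2 ratio, out of 6648 above the floor on both arrays, were named by a rule that took 3 for each member past 2-fold. With 2 arrays, likeness is a difference in 1 number. Nearest to Hop3, at 4.38, were AT2G29500, listed as the small heat shock gene HSP17.6B, at 4.25, the J-domain gene AT2G20560 at 4.55 and AT2G47950 at 4.70. Nearest to FKBP65, at 5.08, were AT1G53540, listed as HSP17.6C, at 5.23, the J-domain gene AT1G71000 at 5.33 and AT3G10020 at 5.36. Around Hop2 the ratios are crowded, and AT5G54940, AT3G53670 and AT4G28706 all stood at 1.15.

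Since small heat shock and J-domain genes came up in both neighbourhoods, these chaperone classes were added as lists after the values had been seen. Small heat shock proteins hold unfolded proteins, and J-domain proteins deliver them to HSP70. Of 17 small heat shock genes, 9 were measured and 8 were past 2-fold upward, 0 downward, beside the same 13.0% and 14.5%. Their median was 4.01, and 3.27 with the floor raised to the 60th percentile; 3 of the 9 ratios are lower bounds. Of 12 cytosolic J-domain genes, 7 were measured, 4 past 2-fold upward and 1 downward, with ratios from -1.26 for AT3G08910 to 5.33 for AT1G71000 and a median of 1.33. The downward call of AT3G08910 was lost with reference gene centring, at -0.65, and with the floor raised to the 60th percentile, at -0.14. Since the nearest genes prompted the lists, the place of Hop3 and FKBP65 among them was fixed by that choice. The 2 nearest genes in each list are also among those counted upward, so the contrast of these counts with 13.0% is partly built in. Without the 2 J-domain genes named as nearest, the other 5 measured ones ran from -1.26 to 1.96, below both members. Leaving out the nearest genes, with members chosen for known ratios, largely sets that order, so it says nothing on the class. Without the 2 small heat shock genes named so, the other 7 ran from 0.39 to 6.63, the highest being a lower bound.

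**Figure D4:**
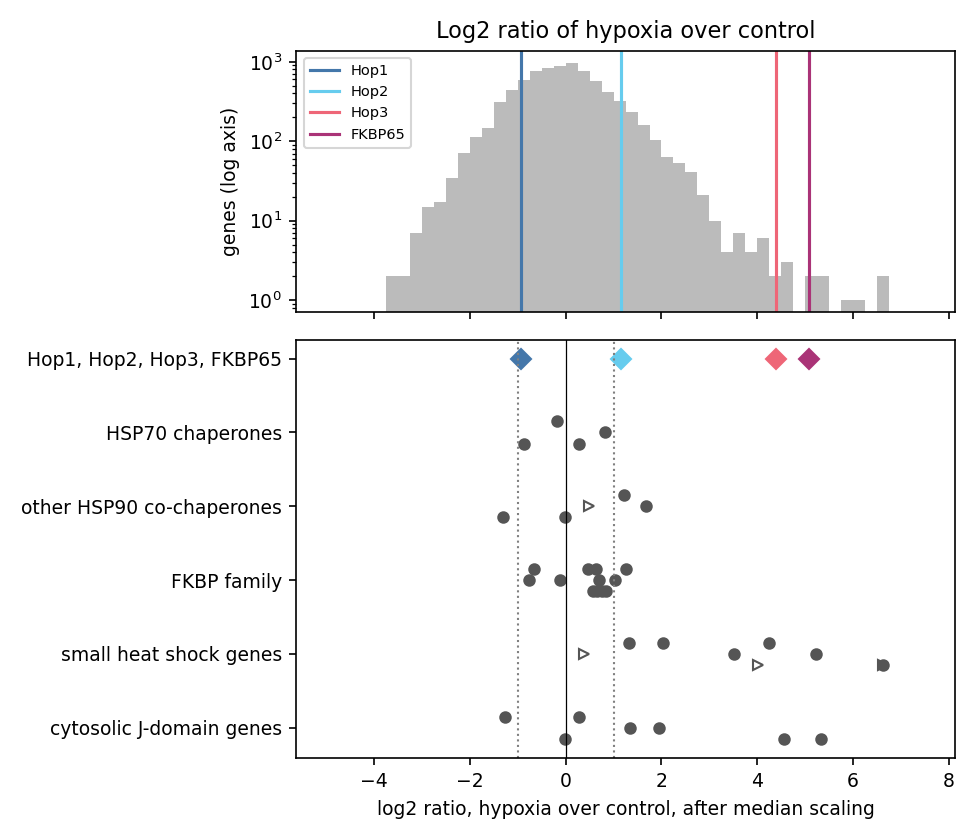
Top: histogram, with a log axis for the number of genes, of the log2 ratio of hypoxia over control for 7972 measured genes, with lines at the 4 members. Bottom: the same ratio for each measured gene of 5 chaperone lists and for the members (diamonds); open triangles are lower bounds, with the control array at the floor, and dotted lines mark 2-fold. Hop3 and FKBP65 lie at 4.38 and 5.08, to the right of the points of the HSP70, other HSP90 co-chaperone and FKBP genes. As both were chosen with these ratios known, that order was largely set by the choice. The small heat shock and J-domain lists were added because some of their genes lie nearest to these members.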

How the data were processed

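RNA from 1 control and 1 hypoxia sample was hybridised to 1 Affymetrix array each; 8 micrograms of total RNA were labelled, per the labels' protocols. The table deposited by the authors holds an intensity for each probe set on a linear scale. Per the submitters' processing notes, the software was GCOS 1.0, with settings not given in the sources used here. Both columns have the same mean, 1500.1, once the lowest and highest 2% of probe sets are left out, so each array had been scaled before deposit.

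Of 22810 probe sets, 64 were manufacturer's controls, 13513 were paired with 1 gene, 503 with several and 8730 with none here. Entrez identifiers matched 13436 single-gene probe sets to a RefSeq table of the assembly TAIR10.1; no coordinates are printed, since the array's build was not given. Arrays were divided by their medians and brought to a common one. Scaled values of both arrays were pooled and their 40th percentile was taken as the floor. Where a gene had more than 1 probe set, that with the highest mean log2 intensity stood for it. Thresholds were 2-fold, and medians needed 3 measured genes. Precision is limited by the number of arrays, and no significance test was possible. Steps were tested on simulated data. Python 3.11.15, pandas 2.3.3, numpy 2.4.6 and statsmodels 0.14.6 (loess, with a 0.3 share of points) were used.

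Members and lists were chosen with earlier results of these data known. Named were the 5 members, measured list genes and the 3 nearest ratios to each member past 2-fold. The planned search of promoters for motifs was not run, since no promoter sequence was used here. Alternatives changed scaling, floor, or probe set choice. With each other scaling the floor was taken anew, at the same percentile, and 1 alternative added 16 to each value in place of a floor.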

Additional observations from a re-analysis of the deposited data

How the results depend on the processing

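The yardstick here was the standard deviation (SD) of the log2 ratio of a single probe set, 0.344, taken from the 74 genes with 2 probe sets. It is another quantity than their median difference of 0.339, and is the spread of 1 ratio, not of a difference. With 10 alternatives, all differences between Hop genes stayed within that SD of their reported values, but both centrings could not change them. Reference gene centring gave log2 ratios of -0.32 for Hop1, 1.76 for Hop2, 4.99 for Hop3 and 5.68 for FKBP65, and hybridisation control centring gave -1.43, 0.65, 3.88 and 4.57; the other 8 alternatives moved each by less than that SD. Genes at least 2-fold higher numbered 2059 of 8174 measured with reference gene centring and 528 of 7916 with hybridisation control centring. They numbered 2273 of 11253 with a floor at percentile 20 and 632 of 5226 with one at percentile 60. As shares these were 25.2%, 6.67%, 20.2% and 12.1%, beside 13.0% in the main setting. For those centrings and the floor at percentile 60, lower ones numbered 352, 2455 and 686. Those shares were 4.31%, 31.0% and 13.1%, beside 14.5%. With reference gene centring the counts higher were 1 for HSP70 and 9 for FKBP genes, and 0 other co-chaperones were lower. With hybridisation control centring, 1 HSP70 and 2 FKBP genes were lower, and 1 other co-chaperone and 0 FKBP genes higher. With values as deposited 1 FKBP gene was higher. Of 62 other measured genes, from the lists, the nearest ratios and the flanking genes, 30 were past 2-fold and 0 of these changed sign. The shifts of 0.61 and -0.50 by the centrings are too small to turn such a ratio, and the other floors cannot turn it. That outcome was therefore largely fixed in advance. No paired analysis was possible because each condition has 1 array. Ratios with the control array at the floor, such as that of SQN, are lower bounds.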

Other observations

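The genes that flank the 4 measured members were looked up in the RefSeq table, 3 protein-coding genes on each side, a choice made after the values had been seen. Of these 24 genes, 10 have a single-gene probe set and 7 were measured, with log2 ratios from -0.91 to 1.85. At least 2-fold higher were 3 and at least 2-fold lower 0, beside 13.0% and 14.5% of all measured genes. With 7 genes, that count is no result about the flanking genes. Of the 3, AT1G62730 fell to 0.99 with values as deposited. Across the alternatives its lowest ratio was 0.54, and that of AT1G12250 was 0.83, both within 2-fold. SKU5, 2 genes from Hop3 and the one measured gene around it, went from 541 in control to 1884 in hypoxia, a ratio of 1.85. AT5G48590, the one measured gene around FKBP65, had 1394 and 1773, a ratio of 0.39. AT1G62730, next to Hop2, was at 1.04, close to the 1.15 of Hop2 itself, and AT1G12250, near Hop1, was at 1.34 while Hop1 was at -0.93. The ratios of Hop3 and FKBP65 lay above those of SKU5 and AT5G48590. Both members were chosen with their high ratios known, so this order was largely set by that choice. FKBP15-2 and FKBP15-1, smaller FKBP genes that stand 2 genes from FKBP65 and from FKBP62 in the table, have no single-gene probe set and were not analysed here.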
